A study of Mus musculus with 10 samples.

Results

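The genes of sterol biosynthesis and lipogenesis were taken by symbol from the gene tables of mouse left ventricles (LV). They comprised 32 of the 55401 genes listed, namely 17 enzymes of the sterol pathway, 5 genes that control sterol synthesis or carry sterol, and 10 genes of fatty acid synthesis. Of the 32 genes, 27 reached the mean level of 1 FPKM required for testing. The list does not hold every step of these pathways, and the other steps were not analysed here.

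LV tissue of 5 nAAC mice and 5 sham mice, all 4 weeks old and of genotype WT, was compared with 1 library per mouse. In nAAC mice the ascending aorta had been constricted by surgery shortly after birth, and the sham mice had undergone an operation without the constriction. Mice of both groups stayed with their mothers and were breast fed. By the study's methods, WT mice were bred from AHR+/- parents on a C57BL/6 background, and females and males were placed in the groups at random. The sex of each mouse is not in the sample labels. Whole tissue was used, so cardiomyocytes, fibroblasts, vessels and leukocytes all contributed RNA to each value.

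Cholesterol is made from acetyl-CoA through mevalonate and farnesyl diphosphate, and the first step committed to sterols joins farnesyl diphosphate into squalene. Farnesyl diphosphate also feeds dolichol, ubiquinone and protein prenylation. The transcription factors SREBP1 and SREBP2 drive these genes together with those of fatty acid synthesis and desaturation, and the INSIG proteins hold the SREBP precursors in the endoplasmic reticulum when sterol is plentiful. Heart muscle burns fatty acids far more than it makes them, and much of its lipid is taken up from the blood.

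Levels are given as FPKM, the fragments counted per kilobase of a gene's transcripts after allowing for library depth. The log2 FC, given where needed with its standard error (SE), is the nAAC mean minus the sham mean on the log2(FPKM + 1) scale, on which changes of weakly expressed genes come out too small. A gene passed the test at an adjusted p below 0.05 from limma with Benjamini-Hochberg adjustment over 11867 genes, and a differentially expressed gene (DEG) also had an absolute log2 FC above 1. Of all genes tested, 27.1% rose, 4.6% fell, 5.01% were up-regulated DEGs and 0.893% were down-regulated DEGs. The groups did not overlap in 18.9% of genes with nAAC higher and in 3.46% with sham higher. Over all genes the median log2 FC was 0.22, and it was -0.02 after median-ratio scaling, which divides each library by the median of its genes' ratios to their geometric means over all mice. That scaling changed the balance of passed genes from 3211 higher and 546 lower to 1461 higher and 1521 lower, so a small positive log2 FC in FPKM is near the middle of all genes. The libraries held from 4.86 to 6.82 gigabases by an estimate from the ratio of coverage to FPKM. Sham replicate 4 stood apart on the second principal component, at -45.2 against -15.1 to 21.1 for the other libraries. Myl2, the ventricular myosin light chain, ran from 2021 to 6282 FPKM over the 10 mice. The atrial light chain Myl7 ran from 0.654 to 79.8 FPKM.

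Of the 27 members tested, 9 rose in nAAC mice, 1 fell and 17 did not pass. The 9 that rose were 33.3% of those tested, and the 1 that fell was 3.7%, against 27.1% and 4.6% of all genes. The groups did not overlap, with nAAC higher, in 5 of the 27, or 18.5%, beside 18.9% of all genes, and with sham higher in 1, beside 3.46%. Fdft1, the squalene synthase gene, fell by more than any other member changed, and it was the only DEG among them. The increases lay mainly with the desaturase genes Scd1, Fads1 and Fads2, with Acss2, and with control genes. After median-ratio scaling 3 of the 27 members were higher and 1 was lower, the higher ones being Scd1, Acss2 and Fads1 and the lower one Fdft1. Of all genes tested under that scaling, 12.4% were higher and 12.9% were lower.

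**Figure D1:**
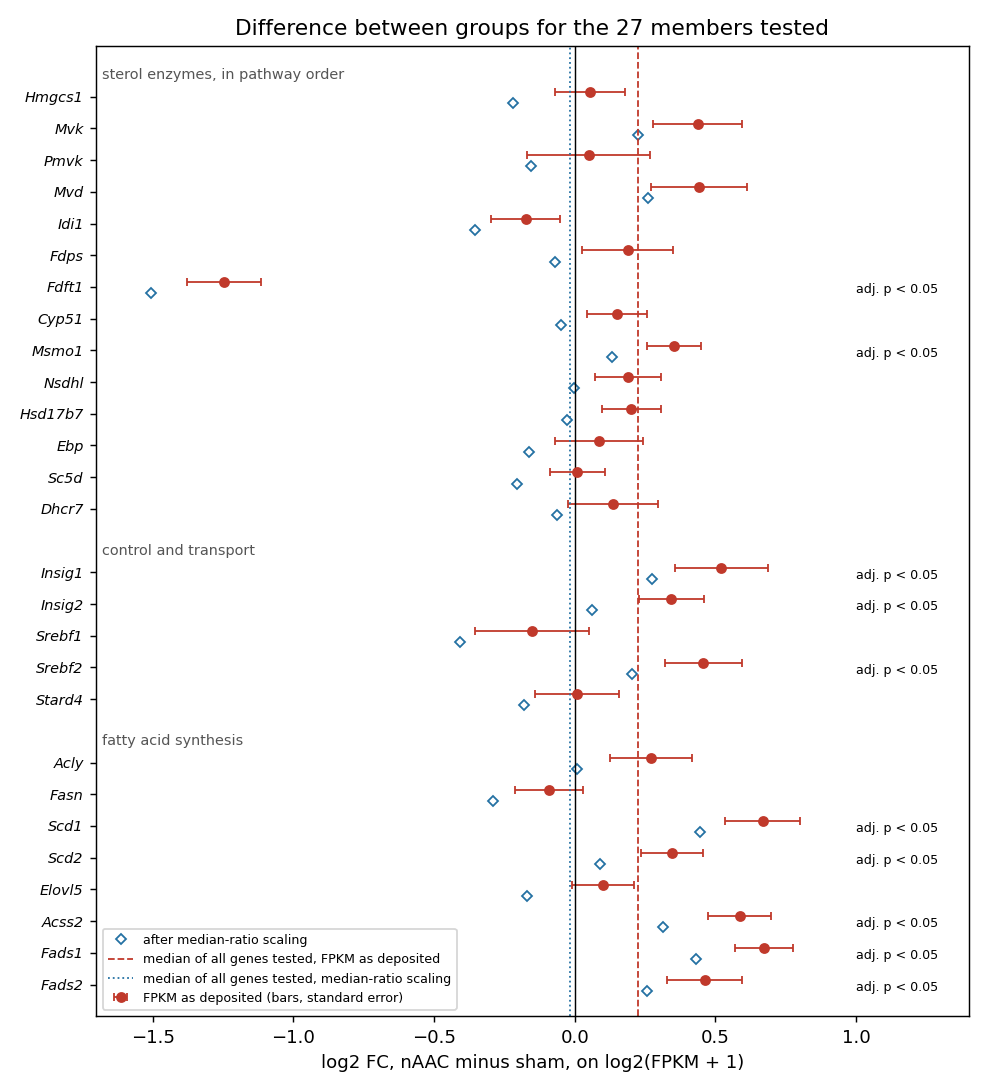
The log2 FC (nAAC minus sham, log2(FPKM + 1) scale) of the 27 members tested is plotted in pathway order, with filled points and standard error bars for FPKM as deposited and open diamonds after median-ratio scaling. Dashed and dotted lines mark the median of all genes under each scaling. Fdft1 lies alone at -1.25, and every other member lies between -0.17 and 0.67 in FPKM as deposited.

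Start regions of 4 members are shown because their genes sit at the entry of the pathway (Hmgcs1), among the sterol enzymes that rose (Msmo1), among the control genes that rose (Insig1) and among the lipogenic genes that rose (Acss2). They are RefSeq sequences of build GRCm38.p6, each from 250 bases before to 50 bases after the RefSeq start, in the direction of transcription. Capitals mark every match on either strand to TCACNCCAC, a spelling of the sterol regulatory element that SREBPs bind, or to CCAAT, the box bound by NF-Y. Hmgcs1 lies at chr13:119690101-119690400 on the plus strand, Msmo1 at chr8:64733529-64733828 on the minus strand, Insig1 at chr5:28071162-28071461 on the plus strand, and Acss2 at chr2:155517793-155518092 on the plus strand.
Hmgcs1: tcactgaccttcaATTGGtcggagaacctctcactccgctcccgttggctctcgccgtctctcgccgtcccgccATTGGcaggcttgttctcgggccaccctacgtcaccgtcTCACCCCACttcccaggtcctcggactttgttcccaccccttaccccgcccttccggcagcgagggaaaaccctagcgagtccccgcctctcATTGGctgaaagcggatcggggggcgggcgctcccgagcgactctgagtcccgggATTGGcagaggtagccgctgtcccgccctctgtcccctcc
Msmo1: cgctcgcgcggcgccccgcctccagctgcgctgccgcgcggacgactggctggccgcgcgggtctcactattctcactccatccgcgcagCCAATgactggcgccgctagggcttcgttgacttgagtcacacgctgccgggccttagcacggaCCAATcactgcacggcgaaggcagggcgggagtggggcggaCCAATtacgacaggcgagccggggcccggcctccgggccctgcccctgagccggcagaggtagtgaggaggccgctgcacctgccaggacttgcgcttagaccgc
Insig1: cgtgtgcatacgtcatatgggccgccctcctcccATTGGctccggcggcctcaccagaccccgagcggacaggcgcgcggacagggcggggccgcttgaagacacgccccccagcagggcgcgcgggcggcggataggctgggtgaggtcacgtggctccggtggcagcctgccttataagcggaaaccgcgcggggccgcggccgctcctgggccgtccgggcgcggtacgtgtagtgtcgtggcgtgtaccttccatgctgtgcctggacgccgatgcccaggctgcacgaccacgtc
Acss2: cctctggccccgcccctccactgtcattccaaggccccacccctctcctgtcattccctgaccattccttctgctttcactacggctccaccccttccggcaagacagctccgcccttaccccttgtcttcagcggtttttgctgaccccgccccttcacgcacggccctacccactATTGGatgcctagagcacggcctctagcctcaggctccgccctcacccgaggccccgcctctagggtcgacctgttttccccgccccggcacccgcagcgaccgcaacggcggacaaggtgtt

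The RefSeq table held 32 start regions of 25 members, several members having more than 1. The sterol element occurred in 1 of the 32, that of Hmgcs1, where its first base is at -137 from the start, and in 1.24% of all 32851 start regions. CCAAT occurred in 23 of the 32 regions, or 71.9%, against 37.4% of all. The GC box GGGCGG occurred in 23 of the 32, against 35.7% of all, and the E-box CACGTG in 5 of the 32, against 7.15%. In Msmo1 the CCAAT matches begin at -160, -96 and -55, in Insig1 at -216 and in Acss2 at -73. A match is only a description of these letters. Fdps, Fdft1, Sqle, Stard4, Scd1, Scd2 and Fads1 had no entry in the table.

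Among the 17 sterol enzymes, 14 were tested, of which Msmo1 rose, Fdft1 fell and 12 did not pass. Those that rose and those that fell were each 7.14% of the 14, against 27.1% and 4.6% of all genes. The log2 FC was positive in 12 of the 14, with a median of 0.14, below the 0.22 of all genes. With median-ratio scaling this median was -0.067, beside -0.02 over all genes, and Fdft1 was the single enzyme that passed. Of all genes, 12.4% were then higher and 12.9% lower. The FPKM of the 17 genes summed to between 49.8 and 60.1 in nAAC mice and between 49.0 and 60.3 in sham mice. In FPKM as deposited, the sum of these 17 genes thus covered nearly the same range in both groups. Fdft1 alone accounted for a difference of several FPKM. The near equality of the sums is limited to that scale. Median-ratio scaling divided the nAAC libraries by 1.044 to 1.252 and the sham libraries by 0.848 to 1.04. Division by these factors lowers the nAAC sums relative to the sham sums.

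Fdft1 (ENSMUSG00000021273) encodes squalene synthase, which makes squalene from farnesyl diphosphate, and occupies the minus strand of chromosome 14 (GRCm38, 63145150 to 63179578). Its FPKM in nAAC replicates 1 to 5 was 3.46, 4.01, 4.25, 5.37 and 4.34, and in sham replicates 1 to 5 it was 11.1, 9.51, 10.5, 12.2 and 14.6. The highest nAAC mouse was below the lowest sham mouse (exact permutation test, two-sided, p = 0.0079, the smallest that 5 against 5 allow). The mean was 4.29 ± 0.693 FPKM (SD, n = 5) in nAAC mice and 11.6 ± 1.93 FPKM (SD, n = 5) in sham mice, 2.70-fold lower in nAAC mice. In limma the log2 FC was -1.25 (SE 0.13, adjusted p = 1.64e-05), which placed Fdft1 at rank 71 of the 11867 genes from the lowest value. It passed in all 19 alternative fits, with a log2 FC from -1.32 to -1.17 when each mouse was left out in turn and from -1.56 to -1.15 under the other settings. Its transcripts share 774 of 4227 exonic bases with Ctsb, the cathepsin B gene on the opposite strand, and whether the counting used strand is not given in the sources used here. Ctsb went the other way, from 59.0 ± 5.92 FPKM in sham mice to 81.8 ± 6.25 FPKM in nAAC mice (SD, n = 5 each), with a log2 FC of 0.47 (limma adjusted p = 0.00922).

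In tissue RNA, a lower share of the cells that express a gene and less RNA per cell cannot be told apart. The summed FPKM of 10 fibroblast markers ran from 703 to 1267 in the nAAC group and from 420.2 to 487.5 in the sham group. Of the 10, 8 rose, beside 27.1% of all genes. The sum of 10 ventricular cardiomyocyte markers overlapped between groups, at 16410 to 24960 FPKM in nAAC mice and 17940 to 32230 FPKM in sham mice. Among them 3 markers were higher and 2 lower, beside 27.1% and 4.6% of all genes. The part of these shifts in the value of Fdft1 was not tested, nor was their part in any other result given here.

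Msmo1 (ENSMUSG00000031604; chromosome 8, 64718139 to 64733792), the C4-methylsterol oxidase that works on sterol intermediates after the ring has closed, was the enzyme that rose. Its FPKM was 3.84, 3.19, 2.97, 2.99 and 3.07 in nAAC replicates 1 to 5 and 2.10, 2.40, 2.36, 2.30 and 2.29 in sham replicates 1 to 5. The groups did not overlap, and nAAC replicate 1 stood above the rest of its group. Limma gave a log2 FC of 0.35 (SE 0.10, adjusted p = 0.0139), and the call held in all 10 fits that left out a mouse. After median-ratio scaling the log2 FC was 0.13 (limma adjusted p = 0.402), and the call was lost.

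Hmgcs1, the synthase that makes HMG-CoA at the entry of the pathway, had the highest mean over all mice of the 17 enzymes, although in sham mice Fdft1 was higher, at 11.6 FPKM against 9.55 FPKM for Hmgcs1. Its FPKM was 9.41, 10.5, 8.65, 11.2 and 9.70 in nAAC replicates 1 to 5 and 8.398, 11.5, 10.7, 9.16 and 7.93 in sham replicates 1 to 5. The values of both groups were interleaved, and the limma log2 FC was 0.06 (SE 0.12, adjusted p = 0.754). This is the gene whose start region holds the sterol element printed above.

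Of the steps from mevalonate to farnesyl diphosphate, Mvk, mevalonate kinase, and Mvd, the decarboxylase, lay closest to the threshold, both with a log2 FC of 0.44 (limma adjusted p = 0.0505 and 0.0644). Mvk ran from 2.87 to 3.90 FPKM in the nAAC group and from 1.45 to 3.08 FPKM in the sham group, and Mvd from 1.49 to 2.81 and from 0.949 to 2.10 FPKM. Both groups overlapped in each gene. Mvk passed without sham replicate 4 (limma adjusted p = 0.0336) and without sham replicate 5 (0.0243), and Mvd without either of them (0.0228 and 0.0308) or without nAAC replicate 5 (0.0403). The number of sterol enzymes that rose was therefore 3 without sham replicate 4, 3 without sham replicate 5 and 2 without nAAC replicate 5, in place of 1. The share of all genes that rose was also larger without sham replicate 4 or sham replicate 5, and it was smaller without nAAC replicate 5. In each of these fits the share of sterol enzymes that rose stayed below that of all genes. The kinase gene Pmvk had a log2 FC of 0.05 and the isomerase gene Idi1 one of -0.17, neither past the test. Fdps, whose product farnesyl diphosphate synthase supplies the substrate of squalene synthase, had a mean of 6.93 ± 0.542 FPKM in nAAC mice and 6.13 ± 1.86 FPKM in sham mice (SD, n = 5 each), and a log2 FC of 0.19 (limma adjusted p = 0.388).

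Past squalene, the enzymes that were tested and did not pass had log2 FC values from 0.01 to 0.20. They were Cyp51, the lanosterol demethylase (0.15), Nsdhl (0.19) and Hsd17b7 (0.20), which work with Msmo1 in removing the C4 methyl groups, Ebp, a sterol isomerase (0.09), Sc5d, a sterol desaturase (0.01), and Dhcr7, the reductase that makes cholesterol from 7-dehydrocholesterol (0.14). Limma adjusted p ran from 0.161 for Hsd17b7 to 0.951 for Sc5d. Each of the 6 was negative under median-ratio scaling, from -0.21 for Sc5d to -0.0035 for Nsdhl. Sqle, squalene epoxidase, Lss, which closes the sterol ring, and Tm7sf2, a sterol reductase, were below the mean level for testing. Sqle was at 0.638 ± 0.135 FPKM in nAAC mice and 0.381 ± 0.116 FPKM in sham mice (SD, n = 5 each; two-sided exact permutation test, p = 0.0159), with overlapping groups. Lss was at 0.405 and 0.474 FPKM and Tm7sf2 at 0.8628 and 0.7098 FPKM on average in nAAC and sham mice. Cyp51 shares 166 exonic bases with Akap9 on the opposite strand, and Tm7sf2 shares 532 with Vps51 on its own strand.

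**Figure D2:**
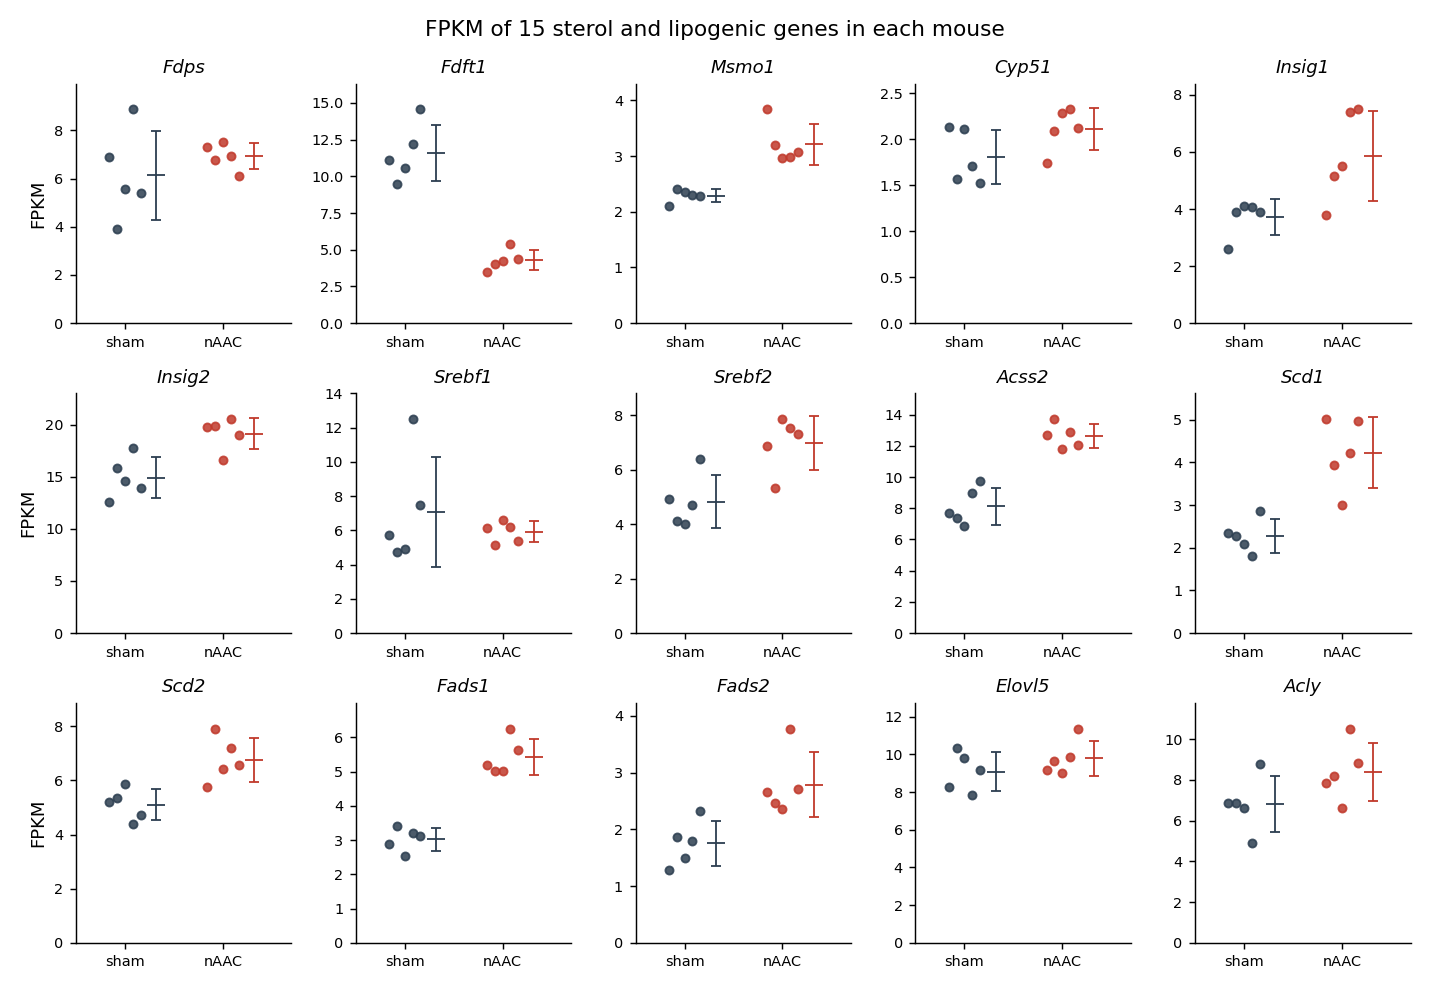
The FPKM of 15 members is plotted with 1 point per mouse and the group mean ± SD (n = 5 per group) beside the points, on linear axes that start at 0. Fdft1 is the panel in which the sham points lie above all nAAC points, and in Msmo1, Acss2, Scd1, Fads1 and Fads2 all nAAC points lie above all sham points.

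Ratios of levels within a library do not depend on how libraries were scaled, and 4 of them were computed after the values had been seen, so they carry no test. FPKM of Fdft1 over that of Fdps, the enzymes on either side of farnesyl diphosphate, was 0.473, 0.593, 0.567, 0.774 and 0.71 in nAAC replicates 1 to 5 and 1.61, 2.43, 1.89, 1.37 and 2.69 in sham replicates 1 to 5. In each sham mouse Fdft1 was thus above Fdps, and in each nAAC mouse it was below. Another branch from farnesyl diphosphate leads to dolichol, the lipid carrier of protein glycosylation, through Dhdds and its partner Nus1. The ratio of Dhdds to Fdft1 was 3.25 ± 0.445 in nAAC mice and 0.537 ± 0.0873 in sham mice (SD, n = 5 each), with no overlap. Dhdds was higher and Fdft1 lower in every nAAC mouse than in any sham mouse, so this ratio could not overlap.

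Dhdds (chromosome 4, 133969028 to 134000918) was at 11.5, 14.5, 14.8, 13.3 and 14.4 FPKM in nAAC replicates 1 to 5 and at 6.56, 6.06, 5.64, 6.31 and 5.91 FPKM in sham replicates 1 to 5. The groups were far apart relative to their spread, and the limma log2 FC was 1.05 (SE 0.10, adjusted p = 9.60e-06), and 0.78 with median-ratio scaling (limma adjusted p = 1.73e-04). It belongs to a list of 10 genes of the isoprenoid branches, all tested, in which 3 rose, 1 fell and 6 did not pass, with a median log2 FC of 0.16. Nus1 had a log2 FC of 0.41 (limma adjusted p = 0.0221), and Icmt, a methyltransferase of prenylated proteins, one of 0.38 (0.0371). Pdss2, a subunit of the synthase of the ubiquinone side chain, had a log2 FC of -0.37 (0.0305). Under median-ratio scaling Dhdds and Pdss2 still passed, and Nus1 and Icmt did not. The list then held 1 higher and 1 lower gene, beside 12.4% and 12.9% of all genes.

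**Figure D3:**
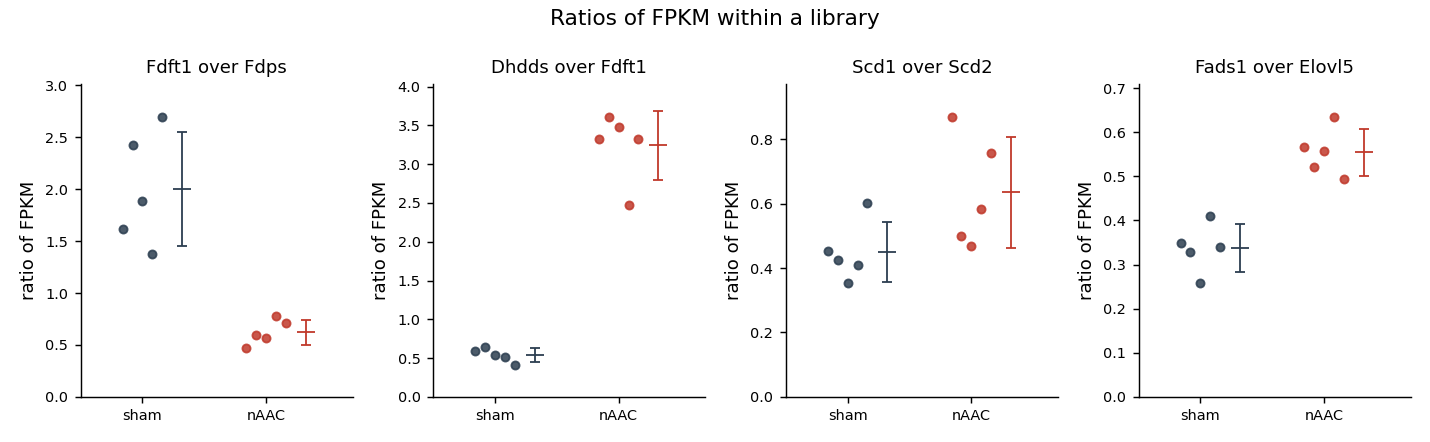
Ratios of FPKM within a library are plotted with 1 point per mouse and the group mean ± SD (n = 5 per group), on linear axes that start at 0. Fdft1 over Fdps is at most 0.774 in nAAC mice and at least 1.37 in sham mice, the ratios of Dhdds to Fdft1 and of Fads1 to Elovl5 lie higher in all nAAC mice, and Scd1 over Scd2 overlaps between groups.

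Of the 5 genes that control or carry sterol, 3 rose, none fell and 2 did not pass, and the groups overlapped in all 5. The 3 of 5 stand beside 27.1% of all genes that rose. The median log2 FC was 0.34, beside 0.22 over all genes, and 0.06 after median-ratio scaling, when 0 passed. Insig1, which retains the SREBP escort protein, had a mean of 5.86 ± 1.58 FPKM in nAAC mice and 3.71 ± 0.63 FPKM in sham mice (SD, n = 5 each) and a log2 FC of 0.52 (limma adjusted p = 0.0292). The nAAC values were 3.79, 5.15, 5.50, 7.39 and 7.50 FPKM and the sham values 2.60, 3.89, 4.11, 4.06 and 3.91 FPKM, in the order of the replicates. Only nAAC replicate 1 lay within the sham range. Insig1 did not pass without sham replicate 1, which was the lowest mouse (limma adjusted p = 0.0784), nor without nAAC replicate 3 (0.0501), nAAC replicate 4 (0.0792) or nAAC replicate 5 (0.0787).

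Insig2, which has the same role, was the most abundant of the 5. Its FPKM was 19.8, 19.9, 16.7, 20.6 and 19.0 in nAAC replicates 1 to 5 and 12.6, 15.8, 14.6, 17.7 and 14.0 in sham replicates 1 to 5, so the groups overlapped through nAAC replicate 3 and sham replicate 4. By limma, the log2 FC was 0.34 (SE 0.12, adjusted p = 0.0388), and it passed in 2 of the 10 fits that left out a mouse, those without nAAC replicate 3 or without sham replicate 4. Adjusted p over these 10 fits ran from 0.0108 to 0.0994.

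Srebf2, the gene of SREBP2, which acts mainly on sterol genes, ran from 5.31 to 7.86 FPKM in the nAAC group and from 4.00 to 6.41 FPKM in the sham group, with a log2 FC of 0.46 (limma adjusted p = 0.0212). It passed in 5 of the 10 fits that left out a mouse, and was lost without nAAC replicate 3, 4 or 5 or sham replicate 2 or 3, with adjusted p from 0.0504 to 0.0579. Srebf1, the gene of SREBP1, which acts more on fatty acid genes, was at 6.17, 5.16, 6.63, 6.20 and 5.40 FPKM in nAAC replicates 1 to 5 and 5.75, 4.74, 4.90, 12.5 and 7.50 FPKM in sham replicates 1 to 5. Sham replicate 4, the library that stood apart, was the highest of all. The log2 FC of Srebf1 was -0.15 (limma adjusted p = 0.587), and 0.05 without that mouse (0.767). With the trend of each library on GC content and transcript length removed it was -0.62 and passed (0.0208). In that fit the log2 FC of Srebf2 was 0.0059 (limma adjusted p = 0.966), and after median-ratio scaling it was 0.20 (0.227). Srebf1 shares 109 exonic bases with Rai1 on the opposite strand. Stard4, a sterol carrier, had a log2 FC of 0.01 (limma adjusted p = 0.971) and means of 1.65 and 1.62 FPKM in nAAC and sham mice.

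A list of 10 further genes of SREBP processing and the LXR receptors, all tested, had 2 that rose and none that fell. The 20% that rose stand beside 27.1% of all genes, and the median log2 FC of 0.22 beside 0.22. The 2 were Abcg1, a cholesterol exporter and LXR target, with a log2 FC of 0.54 (limma adjusted p = 0.00584) and Scap, the escort of the SREBPs, with 0.52 (0.0158). After median-ratio scaling Abcg1 still passed, at 0.39 (0.022), and Scap did not, at 0.27 (0.152). Under that scaling 2 genes of the list were lower, beside 12.9% of all genes. They were Mylip, a ubiquitin ligase and LXR target, at -0.78 (0.0029) and Rxra, the partner receptor of LXR, at -0.42 (0.0155). In FPKM as deposited Mylip had a log2 FC of -0.52 (limma adjusted p = 0.0538) and Rxra one of -0.15 (0.448). In a list of sterol uptake, transport and ester genes, 8 of 10 were tested, 2 rose and 1 fell. These were 25% and 12.5% of those tested, beside 27.1% and 4.6% of all genes. Lrp1, an endocytic receptor for lipoprotein remnants and many other ligands, rose with a log2 FC of 1.69 (limma adjusted p = 2.63e-06). Npc1 and Npc2, which together move cholesterol out of lysosomes, went in opposite directions, at -0.56 (0.00857) and 0.53 (0.0249). After median-ratio scaling 1 gene of this list was higher and 2 were lower, beside 12.4% and 12.9% of all genes. Npc2 did not pass, at 0.25 (0.183), while Vldlr, a lipoprotein receptor, was lower at -0.73 (0.007), against -0.44 (0.0842) in FPKM as deposited.

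Of the 10 genes of fatty acid synthesis, 8 were tested, of which 5 rose and 3 did not pass. The 5 were 62.5% of those tested, beside 27.1% of all genes, and the median log2 FC was 0.40, beside 0.22. In 4 of the 8 the groups did not overlap, with nAAC higher, beside 18.9% of all genes. After median-ratio scaling 3 of the 8 were higher, beside 12.4% of all genes, and the median was 0.17, beside -0.02. Desaturases and Acss2 made up the genes that rose, while Fasn, Acly and Elovl5 did not pass.

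Scd1 (ENSMUSG00000037071; chromosome 19, 44394455 to 44407879), a stearoyl-CoA desaturase that makes monounsaturated fatty acids, was at 5.01, 3.95, 3.01, 4.21 and 4.96 FPKM in nAAC replicates 1 to 5. In sham replicates 1 to 5 it was at 2.36, 2.27, 2.09, 1.79 and 2.86 FPKM. The lowest nAAC mouse was only just above the highest sham mouse, but the groups did not overlap. Means were 4.23 ± 0.824 and 2.27 ± 0.39 FPKM (SD, n = 5 each), 1.86-fold higher in nAAC mice, and the limma log2 FC was 0.67 (SE 0.13, adjusted p = 0.0022). It passed in all 19 alternative fits, with 0.44 after median-ratio scaling (limma adjusted p = 0.0224).

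Scd2, another desaturase of the same family, was at 6.77 ± 0.813 FPKM in nAAC mice and 5.11 ± 0.575 FPKM in sham mice (SD, n = 5 each), with a log2 FC of 0.35 (limma adjusted p = 0.0312). Its groups overlapped, and it did not pass without nAAC replicate 2, 4 or 5 or sham replicate 1 or 5 (adjusted p from 0.051 to 0.0825). After median-ratio scaling the log2 FC was 0.09 (0.654). The ratio of Scd1 to Scd2 was 0.636 ± 0.172 in nAAC mice and 0.449 ± 0.0933 in sham mice (SD, n = 5 each), with overlap. Scd4, in the same cluster on chromosome 19, fell with a log2 FC of -0.74 (limma adjusted p = 0.0248), and Scd3 had a mean of 0.0386 FPKM. The Scd genes are close relatives, and how reads that match several of them were divided is not given in the sources used here, so their separate values are uncertain.

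Fads1 and Fads2, the delta-5 and delta-6 desaturases that make polyunsaturated fatty acids, both rose. Fads1 (ENSMUSG00000010663; chromosome 19, 10182888 to 10196877) was at 5.19, 5.02, 5.02, 6.24 and 5.61 FPKM in nAAC replicates 1 to 5 and at 2.88, 3.397, 2.53, 3.20 and 3.11 FPKM in sham replicates 1 to 5. The gap between the groups was wider than the spread within either. The limma log2 FC was 0.67 (SE 0.10, adjusted p = 3.42e-04), it passed in all 19 alternative fits, and after median-ratio scaling it was 0.43 (limma adjusted p = 0.00375). Fads2 (ENSMUSG00000024665; chromosome 19, 10062765 to 10101746) was at 2.66, 2.46, 2.36, 3.77 and 2.71 FPKM in nAAC replicates 1 to 5 and at 1.28, 1.87, 1.495, 1.80 and 2.32 FPKM in sham replicates 1 to 5. The lowest nAAC mouse, at 2.357 FPKM, was barely above the highest sham mouse, at 2.322 FPKM. In limma the log2 FC was 0.46 (SE 0.13, adjusted p = 0.0179), it did not pass without sham replicate 1 (0.0504), and after median-ratio scaling it was 0.26 (0.10).

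Fads3, in the same cluster, is outside the 32 members and belongs to a list of 20 other lipogenic genes. It was at 21.0 ± 1.79 FPKM in nAAC mice and 9.42 ± 1.82 FPKM in sham mice (SD, n = 5 each), with a log2 FC of 1.09 (limma adjusted p = 4.47e-05), and 0.81 with median-ratio scaling. Of the 18 genes tested in that list 9 rose, 1 fell and 8 did not pass. The 50% that rose and the 5.56% that fell stand beside 27.1% and 4.6% of all genes. The median log2 FC was 0.29, beside 0.22 over all genes, and -0.079 after median-ratio scaling, beside -0.02. Under that scaling 2 were higher and 3 were lower, beside 12.4% and 12.9% of all genes. Slc25a1, the mitochondrial citrate exporter, had a log2 FC of 0.84 (limma adjusted p = 0.00455), and Aacs, which activates acetoacetate for lipid synthesis in the cytosol, one of 0.73 (7.03e-04). Aacs did not reach the level for testing after median-ratio scaling, so the median and counts under that scaling leave it out. Scd4 was the gene that fell.

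Acss2 (ENSMUSG00000027605; chromosome 2, 155517948 to 155585724), which makes acetyl-CoA from acetate in cytosol and nucleus, had the highest mean over all mice of the 10 genes, although in sham mice Elovl5 was higher, at 9.08 FPKM against 8.13 FPKM for Acss2. Its FPKM was 12.7, 13.7, 11.8, 12.9 and 12.1 in nAAC replicates 1 to 5 and 7.69, 7.37, 6.89, 8.96 and 9.75 in sham replicates 1 to 5. The groups did not overlap, and the nAAC mice lay close together. Limma gave a log2 FC of 0.59 (SE 0.11, adjusted p = 0.00175), and it passed in 18 of the 19 alternative fits, the exception being upper-quartile scaling (0.28, adjusted p = 0.0583). Of 10163 exonic bases, 395 are shared with Gss and 197 with Ggt7 on the opposite strand. Gss, the glutathione synthetase gene, moved in the same direction, from 4.10 ± 1.59 to 7.07 ± 0.82 FPKM (SD, n = 5 each; log2 FC 0.71, limma adjusted p = 0.0115).

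Acly and Fasn, core enzymes of saturated fatty acid synthesis, did not pass. Acly, which makes cytosolic acetyl-CoA from citrate, had a log2 FC of 0.27 (limma adjusted p = 0.173). Fasn, the fatty acid synthase, was at 1.92 ± 0.151 FPKM in nAAC mice and 2.13 ± 0.493 FPKM in sham mice (SD, n = 5 each), with a log2 FC of -0.09 (limma adjusted p = 0.583). With GC content and length trends removed its log2 FC was -0.58 (3.19e-04), a call that was not made under any other setting. Elovl5, an elongase of polyunsaturated fatty acids, had a log2 FC of 0.10 (limma adjusted p = 0.505), and the ratio of Fads1 to Elovl5 was 0.555 ± 0.053 in nAAC mice and 0.337 ± 0.0542 in sham mice (SD, n = 5 each) without overlap.

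Acaca, the acetyl-CoA carboxylase that makes malonyl-CoA, had a mean over all mice of 0.967 FPKM and just missed the level for testing. It was at 1.21 ± 0.214 FPKM in nAAC mice and 0.727 ± 0.214 FPKM in sham mice (SD, n = 5 each), with the lowest nAAC mouse at 0.957 and the highest sham mouse at 0.922 (two-sided exact permutation test, p = 0.0079). When all genes were tested without a minimum level its limma adjusted p was 0.0653. With TPM in place of FPKM it reached the level for testing and passed, with a log2 FC of 0.54 (0.0149). This made 6 fatty acid genes higher in that fit, in which 40.9% of all genes tested rose. Elovl6, an elongase of saturated fatty acids, was the least abundant member, at 0.214 and 0.141 FPKM on average in nAAC and sham mice (two-sided exact permutation test, p = 0.0556).

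**Figure D4:**
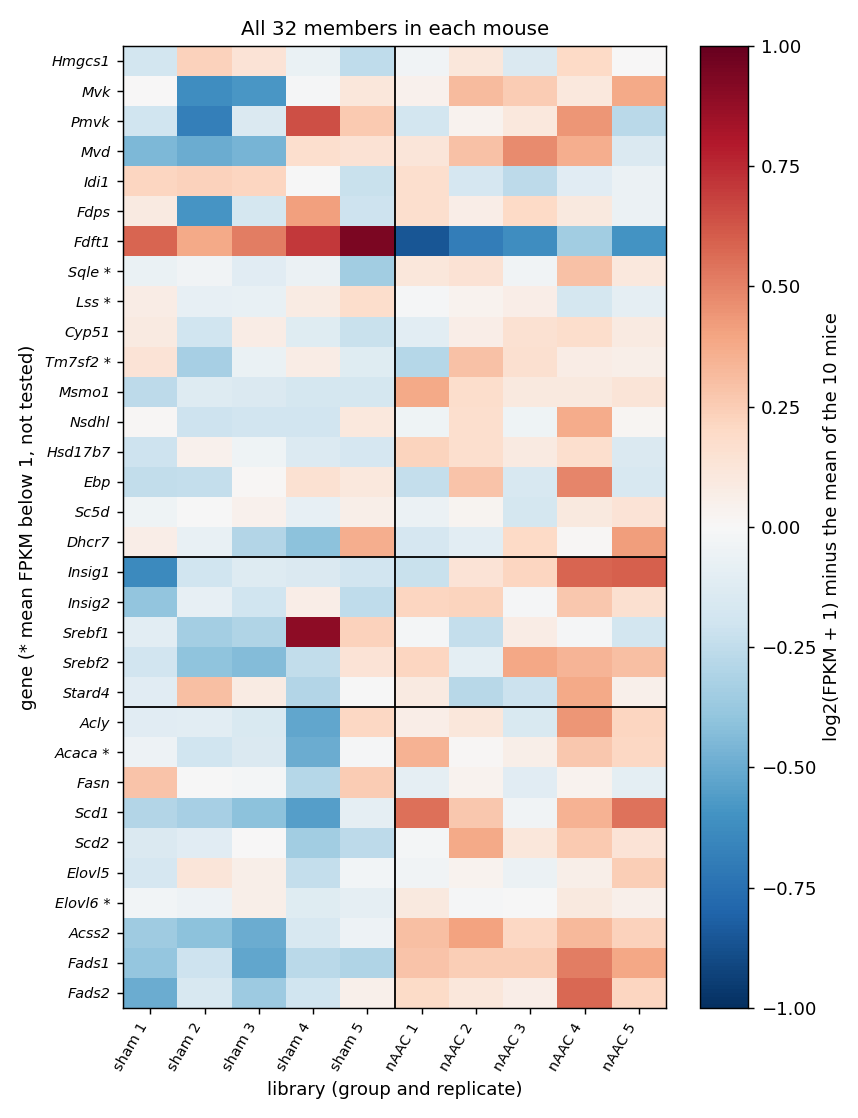
Each cell is the log2(FPKM + 1) value of 1 of the 32 members in 1 mouse minus the mean of that gene over the 10 mice, on a scale from blue (below the mean) to red (above it). Fdft1 is the row that is red in all sham mice and blue in all nAAC mice, Srebf1 is high in sham replicate 4, and Acss2, Fads1 and Fads2 are mostly blue in sham and red in nAAC mice.

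Adipocytes are rich in lipogenic transcripts, and 10 of their markers were read in each library. Of these, 9, with Lep and Retn listed at 0 in all nAAC mice, had a mean below the level for testing. Adipoq, the adiponectin gene, was listed at 0 in all nAAC mice and at no more than 0.308 FPKM in sham mice. The summed level of the list ran from 14.0 to 25.3 FPKM in the nAAC group and from 7.31 to 19.4 FPKM in the sham group, and it was carried by Cidea, a lipid droplet gene, which rose with a log2 FC of 0.97 (limma adjusted p = 0.0178) but did not pass after median-ratio scaling (0.69, adjusted p = 0.0645) or upper-quartile scaling (0.65, adjusted p = 0.09). All other markers of the list except Ucp1 had lower means in nAAC than in sham mice, among them Car3 at 0.112 and 1.22 FPKM, Cfd at 0.0978 and 0.877 FPKM and Cidec at 0.0135 and 0.139 FPKM. Among the other lists, the sum of 10 macrophage markers ran from 165 to 328 FPKM in the nAAC group and from 109 to 231 FPKM in the sham group, with 3 that rose. Of 10 endothelial markers 1 rose, of 4 tested Schwann cell markers 2 rose, and of 5 erythroid markers none passed. These counts stand beside the 27.1% of all genes that rose. Of 4 tested atrial markers 1 rose, which was Nppa, also a gene of the loaded ventricle.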

How the data were processed

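RNA of LV tissue from 5 nAAC and 5 sham mice was sequenced with the NEBNext Ultra kit. The authors deposited 1 table per mouse with coverage, FPKM and TPM per gene. The deposited coverage is a mean read signal per base, the deposited FPKM is normalized for length and depth, and the deposited TPM is rescaled to a fixed sum. The layout is that of StringTie. Aligner, quantifier and use of strand are not given in the sources used here. The submitters' processing notes name build mm10, and 99.411% of shared genes had the coordinates of GENCODE M21.

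Rows with the same gene ID were summed. Genes averaging 1 FPKM or more over the 10 mice were tested on log2(FPKM + 1) with limma 3.58.1 (trend) in R 4.3.3, with Benjamini-Hochberg adjustment over 11867 genes. The values are not read counts, so no count model was used and depth is only estimated. Where nothing says that libraries come from separate litters, p measures the spread between these mice. Two-sided exact permutation tests used all 252 splits of 5 against 5. The test was checked on simulated data. Replicate numbers follow the labels. Members and lists were chosen with earlier results of these data known. All 32 members are accounted for. Members that passed without overlap, and the most abundant of each group, have their value in every mouse, while Insig1 and Srebf1 were added after their values were seen. Up to 4 genes of each neighbour list are named by the size of the change. Alternatives were scaling by median ratio or upper quartile, TPM, scaling without mitochondrial transcripts, a pseudocount of 0.1, no filter, a replicate block, an Xist covariate, removal of GC and length trends, other thresholds, and leaving out each mouse. Figures used matplotlib 3.10.9 under Python 3.11.15.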

Additional observations from a re-analysis of the deposited data

Results flagged for a closer look

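In 76 groups of 5 values, the distance from an extreme mouse to the next was set against the group's whole range, and 5 exceeded Dixon's critical value of 0.71, where chance gives about 3.8. For genes the ratio was computed on the log2(FPKM + 1) scale, while the levels beside it are printed in FPKM. Insig1 was lowest in sham replicate 1, at 2.60 FPKM against 3.89 to 4.11 in the other sham mice (ratio 0.872). Sqle was lowest in sham replicate 5, at 0.18 FPKM against 0.386 to 0.466 (ratio 0.741). Msmo1 was highest in nAAC replicate 1, at 3.84 FPKM against 2.97 to 3.19 (ratio 0.722). Fads2 was highest in nAAC replicate 4, at 3.77 FPKM against 2.36 to 2.71 (ratio 0.715). The estimated depth of nAAC replicate 1 was 6.82 gigabases against 4.86 to 5.26 in the other nAAC libraries (ratio 0.796). The cause of these gaps was not tested.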

How the results depend on the processing

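Fdft1, Scd1 and Fads1 passed in all 19 alternative fits, Acss2 in 18, Msmo1 and Fads2 in 14, Insig1 and Srebf2 in 10, Scd2 in 9 and Insig2 in 6. The number of sterol enzymes that rose, 1 in FPKM as deposited, was 0 with median-ratio or upper-quartile scaling, Xist as a covariate, GC and length trends removed, an added log2 FC threshold of 1 or an adjusted p below 0.01, 4 with TPM, 3 without mitochondrial transcripts, and 1 to 3 when each mouse was left out. Their median log2 FC of 0.14 was -0.067 with median-ratio scaling, -0.098 with upper-quartile scaling, 0.29 with TPM and -0.068 without GC and length trends. The number of control genes that rose, 3, was 0 with median-ratio or upper-quartile scaling, the Xist covariate, trends removed or either stricter threshold, and 0 to 3 when each mouse was left out, with 0 without nAAC replicate 4 or nAAC replicate 5 and 1 without nAAC replicate 3 or sham replicate 1, 2 or 3. With trends removed 1 control gene, Srebf1, was lower. Their median of 0.34 was 0.061 with median-ratio scaling, 0.023 with upper-quartile scaling, 0.52 with TPM and 0.0059 with trends removed. The number of fatty acid genes that rose, 5, was 3 with median-ratio scaling, 2 with upper-quartile scaling, 3 with trends removed, 3 at an adjusted p below 0.01, 6 with TPM, 0 with the log2 FC threshold, and 3 to 5 when each mouse was left out, with 3 without sham replicate 1. With trends removed 1 of them, Fasn, was lower. Their median of 0.40 was 0.17 with median-ratio scaling, 0.14 with upper-quartile scaling, 0.54 with TPM, 0.52 with a pseudocount of 0.1 and 0.087 with trends removed. The share of all genes that rose moved with the setting too. It was larger with TPM and slightly smaller without mitochondrial transcripts. With median-ratio or upper-quartile scaling, the Xist covariate or trends removed it was much smaller. With TPM, without mitochondrial transcripts and without each mouse in turn, the share of sterol enzymes that rose stayed below that of all genes. The share of fatty acid genes stayed above it with either scaling, TPM or trends removed. The cause of these moves was not tested.

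Members that changed sign had not passed in FPKM as deposited. With median-ratio scaling the log2 FC was -0.22 for Hmgcs1, -0.15 for Pmvk, -0.070 for Fdps, -0.050 for Cyp51, -0.0035 for Nsdhl, -0.028 for Hsd17b7, -0.16 for Ebp, -0.21 for Sc5d, -0.064 for Dhcr7, -0.18 for Stard4 and -0.17 for Elovl5. With upper-quartile scaling the same genes, in this order, were at -0.25, -0.18, -0.11, -0.076, -0.029, -0.059, -0.20, -0.24, -0.091, -0.21 and -0.21, and Acly was at -0.028. With trends removed Hmgcs1 was at -0.055, Pmvk at -0.29, Fdps at -0.082, Cyp51 at -0.027, Ebp at -0.15, Sc5d at -0.11, Dhcr7 at -0.18, Stard4 at -0.14, Acly at -0.056 and Elovl5 at -0.034. With Xist as a covariate Pmvk was at -0.16 and Stard4 at -0.043, without mitochondrial transcripts Sc5d was at -3.4e-04 and Stard4 at -0.0022, and with TPM Fasn was at 0.027. When each mouse was left out, Hmgcs1 ran from -0.0019 to 0.12, Pmvk ran from -0.11 to 0.22, Ebp ran from -0.023 to 0.16, Sc5d ran from -0.024 to 0.055, Srebf1 ran from -0.26 to 0.053 and Stard4 ran from -0.085 to 0.084.

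No pairing of the mice by replicate number was visible, and whether same-numbered mice shared a litter or batch was not tested. Deviations of same-numbered mice correlated by -0.32 to 0.19, and 1 of the 10 libraries correlated best with its own number. With the replicate number as a block 2929 genes were higher and 497 lower, in place of 3211 and 546, and 0 sterol enzymes rose. FPKM gives no counts, so the precision at low levels, where Sqle, Lss, Tm7sf2, Acaca and Elovl6 lie, is known only from the spread between mice.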

Other observations

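Sham replicate 4, which held the highest Srebf1, also held the highest Thrsp, a lipogenic gene of the neighbour list that was singled out after its values were seen. Thrsp was at 15.4 FPKM in that mouse and between 4.55 and 8.57 FPKM in the other sham mice, and between 5.82 and 9.69 FPKM in nAAC mice. In the same mouse Scd1 was at 1.79 FPKM and Acly at 4.92 FPKM, the lowest values of either gene over the 10 mice. The trends of this library were not examined further.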
